A study of Mus musculus with 94 samples.

Results

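Heat shock proteins and small chaperones were followed in single mouse perivascular adipose tissue-derived stem cells (PV-ADSCs). The members were 10 genes listed by name, namely *Hspa1a*, *Hspa1b*, *Hspa8*, *Hspa5*, *Hsp90aa1*, *Hsp90ab1*, *Dnajb1*, *Hspb1*, *Hspb8* and *Cryab*, and all 10 had a row among the 16069 genes of the table. The cells were primary, uncultured cells of the stromal vascular fraction from the fat around the aorta of c57/bl mice aged 8 weeks. The tissue was digested with collagenase I, and CD144-, CD45-, CD29+ and Sca1+ cells were sorted and sequenced as 1 SMARTseq v4 library per cell, so the cells had been through a digestion and a sort before lysis. The design held 1 condition with no treated or control arm, and 85 of the 94 labelled cells were in the table. No animal was named for a cell, so the cells were taken as 1 sample, no test between cells was made, and every spread given is between cells and not between animals. Cells were parted by *Dcn*, the small proteoglycan of fibroblastic cells, into 58 stromal cells with a deposited value of at least 1000 and 27 other cells. The lowest *Dcn* value among stromal cells was 6521 and the highest among other cells was 269, so no deposited value lay near the limit. Deposited values are reads times a factor of the cell, which for *Dcn* ran from 0.269 to 94.5. The gap is therefore one of scaled values and not of reads.

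Chaperones bind unfolded stretches of proteins and keep them from aggregating while they fold. HSP70 proteins do so in cycles of ATP hydrolysis that J-domain proteins start, HSP90 proteins act later on signaling clients, and small heat shock proteins hold unfolded proteins without using ATP. *Hspa8* and *Hsp90ab1* are the constitutive members of their families, *Hspa1a*, *Hspa1b*, *Hsp90aa1*, *Dnajb1* and *Hspb1* are classical targets of heat shock factor 1, and *Hspa5* encodes BiP, the HSP70 of the endoplasmic reticulum (ER). Tissue digestion is known to raise several of these transcripts in isolated cells, and no cells prepared without digestion were analysed here.

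Promoters from the RefSeq table (GRCm38.p6) were found for 6 of the 10 members. They are shown for the 3 members that were lower in stromal cells and for *Hspa5*, since these held the elements searched for. The table gave 250 bases before each start, printed 5′ to 3′ on the strand of the gene, at chr17:34972157-34972406 (- strand) for *Hspa1a*, chr17:34959239-34959488 (- strand) for *Hspa1b*, chr5:135887669-135887918 (+ strand) for *Hspb1* and chr2:34771840-34772089 (+ strand) for *Hspa5*. Capitals mark a heat shock element of 2 units, GAANNTTC or TTCNNGAA, in the first 3 promoters and the ER stress element, CCAAT followed after 9 bases by CCACG, in *Hspa5*, each searched on both strands.
Hspa1a: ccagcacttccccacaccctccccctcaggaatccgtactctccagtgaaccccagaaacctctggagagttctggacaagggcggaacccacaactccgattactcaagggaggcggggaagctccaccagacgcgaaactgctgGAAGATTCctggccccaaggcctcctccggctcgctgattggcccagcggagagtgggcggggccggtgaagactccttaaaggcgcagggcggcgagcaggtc
Hspa1b: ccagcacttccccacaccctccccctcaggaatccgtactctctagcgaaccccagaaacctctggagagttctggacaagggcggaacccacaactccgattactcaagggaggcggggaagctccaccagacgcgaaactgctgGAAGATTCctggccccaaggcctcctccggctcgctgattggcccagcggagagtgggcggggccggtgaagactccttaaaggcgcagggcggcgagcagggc
Hspb1: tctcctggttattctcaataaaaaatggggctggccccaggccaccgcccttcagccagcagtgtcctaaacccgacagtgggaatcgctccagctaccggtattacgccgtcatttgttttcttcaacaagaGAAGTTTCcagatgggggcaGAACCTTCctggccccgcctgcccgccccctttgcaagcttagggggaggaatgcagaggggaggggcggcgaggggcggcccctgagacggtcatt
Hspa5: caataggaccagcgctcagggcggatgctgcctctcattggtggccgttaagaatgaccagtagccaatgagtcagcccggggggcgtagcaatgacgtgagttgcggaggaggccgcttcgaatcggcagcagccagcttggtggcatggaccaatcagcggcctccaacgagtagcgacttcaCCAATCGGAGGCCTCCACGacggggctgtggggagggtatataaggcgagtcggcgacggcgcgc
In *Hspa1a* and *Hspa1b* the element began 104 bases before the start, and these promoters matched at 247 of 250 positions. *Hspb1* held 2 such elements, 117 and 97 bases before its start. The element of 2 units was in 12.8% of all 32851 promoters of the same length, so it is common. It was chosen after a longer element of 3 units had been found in none of the 6 members with a promoter. The longer element has the same letters with 1 further GAA or TTC in turn, 2 bases on, and was in 0.466% of promoters. The ER stress element of *Hspa5* began 65 bases before the start, and 0.113% of all promoters held one. The promoters of *Dnajb1* and *Hspb8* held neither element in this window. A match of letters is a description only, and binding was not measured.

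The labels of both groups of cells were checked by markers. At least 3 of 10 stromal markers reached 100 reads in 57 of the 58 stromal cells and in 0 of the other cells. At least 3 of 10 endothelial markers reached 100 reads in 23 of the 27 other cells, although the sort excluded CD144+ cells, and in 1 stromal cell. Immune and adipocyte markers with a row were 1 gene in each list and were at 0 in all other cells. In stromal cells the immune marker *Cd68* reached 100 reads in 2 and the adipocyte marker *Adipoq* in 1. At least 3 of 6 mesothelial markers reached 100 reads in 2 stromal cells, and 1 of the 6, *Wt1*, did so in 18. All 6 were at 0 in the other cells. Of 4 mural markers with a row, *Rgs5* reached 100 reads in 3 and *Mcam* in 2 of the other cells. *Cspg4* did so in 2 and *Des* in 1 of the stromal cells, and no cell held 3 of the mural markers. Recovered reads per cell, for which the scaling factors of the table were divided out, spanned 1146945 to 4776510, with medians of 2963854 in stromal and 2714449 in other cells. Genes above 0 had a median of 2813 in stromal cells (850 to 4148) and of 1416 in other cells (285 to 2278), and the part of this in the differences between the groups was not tested. RPM stands for recovered reads of a gene per 1000000 recovered reads of its cell. The 10 stromal markers summed to 29.6 RPM in the lowest stromal cell and to at most 77.6 RPM in other cells.

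Chaperone transcripts were abundant. Of the 10 members, 8 were above 0 in at least 50% of the 85 cells, compared with 7.21% of all genes. *Hspa8* was found in all 85 cells, *Hspb8* in 32 and *Cryab* in 28. Together the members made up a median of 0.744% of the reads of a stromal cell (0.00157 to 2.32%) and 1.51% of those of a cell of the other group (0.000109 to 4.03%), and these ranges overlapped. A median of 6 members per stromal cell and 5 per other cell reached 100 reads. At least 5 members did so in 44 of 58 stromal and in 14 of 27 other cells. Other cells had fewer genes above 0, and the matching counts for all genes were not computed.

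**Figure D1:**
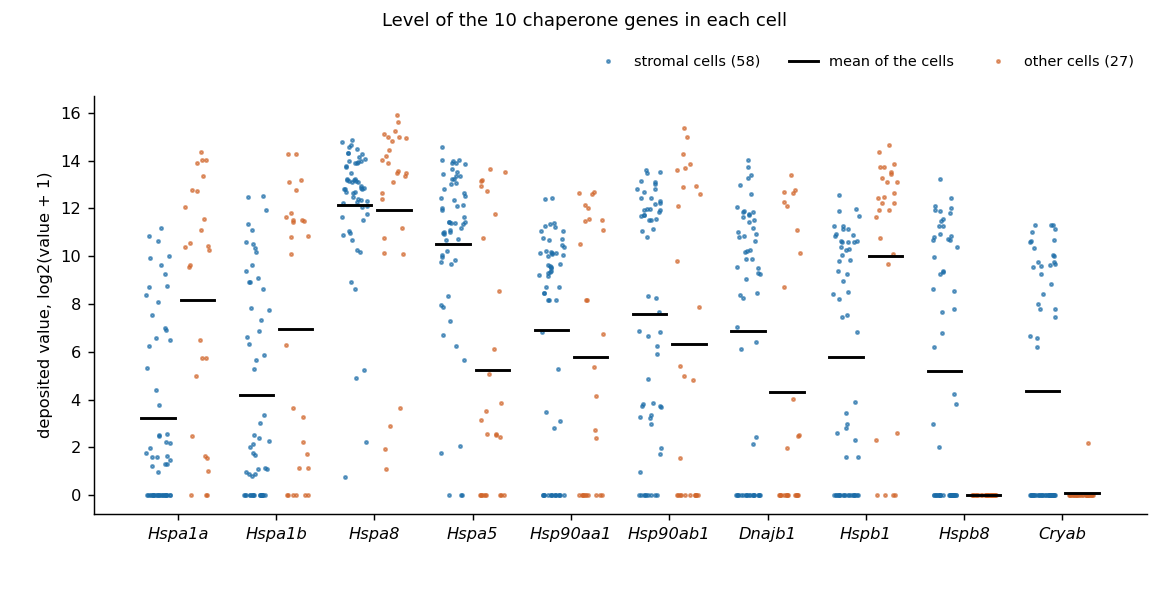
Deposited value of each of the 10 genes in each cell, as log2(value + 1) on the vertical axis, for 58 stromal cells (blue) and 27 other cells (orange), with 1 point per cell and a bar at the mean. *Hspa8* lies near 12 in both groups, *Hspb8* and *Cryab* are at or near 0 in the other cells, and most genes have cells at 0 beside cells above 8.

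The highest level of any member, per kilobase of transcript, belonged to *Hspa8* in stromal cells and to *Hspb1* in other cells. In stromal cells the mean level in RPM per kilobase was 1372 ± 1107 (SD, n = 58 cells) for *Hspa8*. It was 485 ± 518 for *Hspa5*, 376 ± 460 for *Hsp90ab1* and 323 ± 479 for *Hspb1*. These 3 neighbours differed by less than the spread between cells. The lowest mean level per kilobase in stromal cells was that of *Hspa1a*, 22.8 ± 53.2. In other cells *Hspb1* reached 2754 ± 2652 (n = 27 cells) and *Hspa8* 2403 ± 2413, which again differed by less than their spread, while *Hspb8* was at 0. *Hspa8* was the member with most reads in 34 of 58 stromal cells and in 15 of 27 other cells. *Hspa5* led in 14 stromal and 1 other cell, whereas *Hspa1a* and *Hspb1* each led in 0 stromal and 4 other cells.

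**Figure D2:**
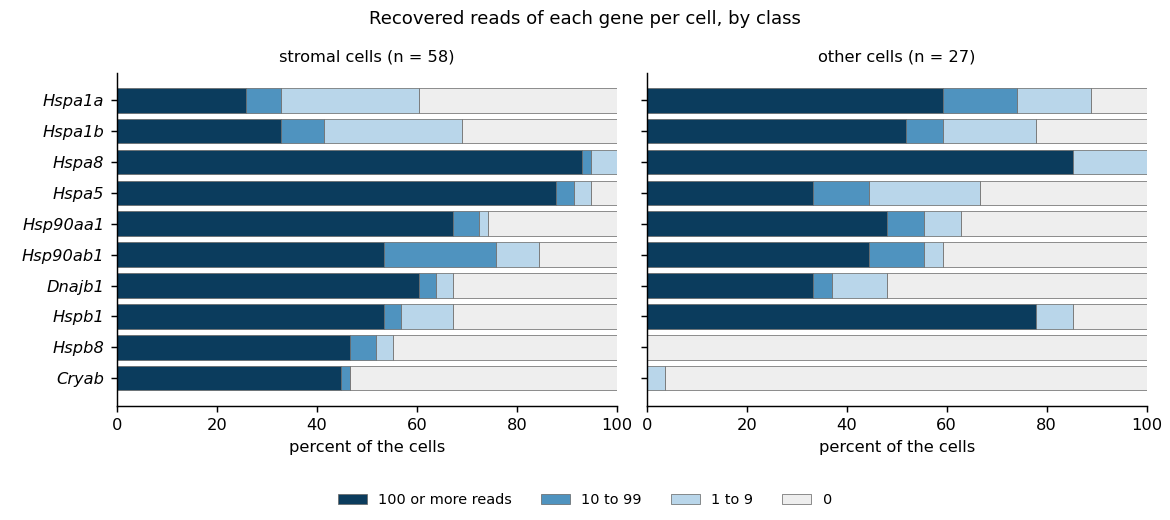
Percent of the 58 stromal cells (left) and the 27 other cells (right) with 0, 1 to 9, 10 to 99 and 100 or more recovered reads of each gene. *Hspa1a* and *Hspa1b* reached 100 reads in 25.9% and 32.8% of stromal cells, with many cells at 1 to 9 reads, whereas *Hspb8* and *Cryab* reached 100 reads in no other cell.

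The stress-inducible HSP70 genes were low in most stromal cells and high in most other cells. *Hspa1a* ranged from 0 to 722 RPM in stromal cells, with a median of 0.712, and from 0 to 6311 in other cells, with a median of 405. It was above 0 in 35 of 58 stromal cells (60.3%, 95% exact interval 46.6 to 73%, which covers counting error only) and in 24 of 27 other cells (88.9%, 70.8 to 97.6%). The groups overlapped, but 16 of 27 other cells and 15 of 58 stromal cells reached 100 reads. Its mean log2(value + 1) was 3.21 ± 3.78 in stromal and 8.16 ± 5.05 in other cells, a difference of -4.94. With every cell thinned to 1146945 reads it was above 0 in 55.2% of stromal and 81.5% of other cells.

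*Hspa1b* ran the same way. It ranged from 0 to 1846 RPM in stromal cells, with a median of 1.33, and from 0 to 6052 in other cells, with a median of 347. At 100 reads it was found in 19 of 58 stromal and 14 of 27 other cells, and the shares above 0, 69% and 77.8%, had overlapping intervals. The difference of the mean log2(value + 1) was -2.78. Where it reached 100 reads, its median was 317 RPM in stromal and 1028 RPM in other cells. The 3 highest of the other cells by RPM held 54.2% of the summed RPM of *Hspa1b* in that group.

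The 2 genes are near-identical copies, and 52.7% of the 75-base windows of the *Hspa1a* transcript were also in *Hspa1b*. How reads that fit both were counted is not given in the sources used here, so the split between them is uncertain and their sum is the safer value. The sum had a median of 8.67 RPM in stromal and 1056 in other cells. It reached 100 reads in 27 of 58 stromal cells (46.6%, 33.3 to 60.1%) and in 18 of 27 other cells (66.7%, 46 to 83.5%), so these intervals overlapped. On the log2(RPM + 1) scale the difference of the sum was -3.72. Both genes reached 100 reads in 20 cells, *Hspa1a* alone in 11 and *Hspa1b* alone in 13. Spearman's rho between them was 0.49 over stromal and 0.65 over other cells, a description of points that share a library and its depth.

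**Figure D3:**
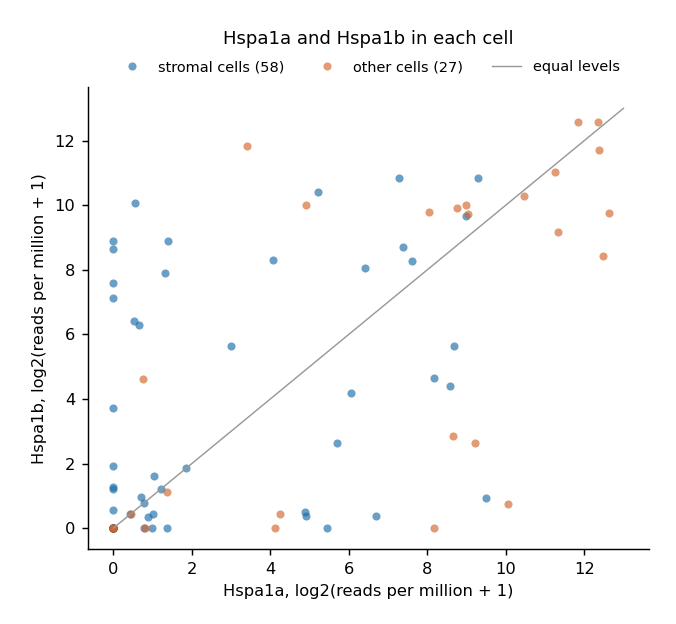
*Hspa1a* (horizontal axis) against *Hspa1b* (vertical axis) in log2(RPM + 1), with 1 point per cell, 58 stromal cells in blue and 27 other cells in orange, and a line at equal levels. Of the 20 cells at 100 reads or more in both genes, 12 are other cells, and stromal cells lie along both axes, high in 1 gene and low in the other.

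*Hspa8*, the constitutive HSC70 of the cytosol, was the most even member over stromal cells. It ranged from 0.271 to 9300 RPM in stromal cells, with a median of 2520, and from 0.390 to 20946 in other cells, with a median of 3624. At least 100 reads of it were found in 54 of 58 stromal and 23 of 27 other cells. Its mean log2(value + 1) was 12.13 ± 2.82 in stromal and 11.93 ± 4.35 in other cells, a difference of 0.20 that is small beside the spread between cells. Its sign was not stable: the difference was -1.01 with cells of at least 1000 genes only, -0.66 against the 23 other cells with endothelial markers, and between -0.22 and -0.12 when cell 13, 56, 69 or 89 of the other cells was left out. By mean RPM it was 1.75-fold higher in other cells. Its coefficient of variation over stromal cells was 0.807, and 7.45% of the 1664 genes above 0 in at least 50% of stromal cells had a lower one. A lower SD of log2(value + 1) was found for 35.6% of these genes. Over other cells the coefficient of variation of *Hspa8* was 1.0, with *Hspb1* at 0.963.

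*Hspa8* has many copies in the mouse genome, most of them processed, and 68.6% of the 75-base windows of its transcript were in 10 other genes with rows of their own. The 3 genes whose levels were most like those of *Hspa8* over stromal cells were among these 10. *Gm8355* had a Spearman's rho of 0.92 with it, *Gm26825* of 0.86 and *Gm6210* of 0.78, and *Gm26825*, annotated as a lincRNA, shared windows on the opposite strand. The 10 rows held 16.8% of the summed reads of *Hspa8* and these genes. With these rows added, the difference between stromal and other cells on the log2(RPM + 1) scale was 0.21, compared with 0.20 without them.

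*Hspa5*, which encodes BiP, was present in nearly all stromal cells and in a minority of other cells at a high level. It ranged from 0 to 8896 RPM in stromal cells, with a median of 1046, and from 0 to 5696 in other cells, with a median of 3.12. It reached 100 reads in 51 of 58 stromal cells (87.9%, 76.7 to 95.0%) and in 9 of 27 other cells (33.3%, 16.5 to 54%). These intervals cover counting error only, and the share of all genes with intervals as far apart was not computed. The mean log2(value + 1) of *Hspa5* was 10.52 ± 3.66 and 5.26 ± 5.37, a difference of 5.26. By mean RPM it was 1782 in stromal and 972 in other cells, 1.83-fold, which is below a difference of 1 on the log2 scale. The other cells that held it were not low: where it reached 100 reads, its median was 3299 RPM in other cells and 1241 in stromal cells. No window of its transcript was in another gene.

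The genes that work with BiP in the ER were mostly higher in stromal cells too. Of 16 ER chaperone and unfolded protein response genes, 14 were higher in stromal cells by at least 1 on the log2 scale, 0 were lower by at least 1, and the median difference was 4.27. By the same rule 35.6% of all genes expressed in 3 or more cells and 77.6% of those expressed in at least 50% of cells were higher, with median differences of 0.64 and 2.50. The largest differences were those of the lectin chaperone *Canx* (7.26), the ER HSP90 *Hsp90b1* (7.0) and the disulfide isomerase *Pdia6* (6.84). Within stromal cells *Hspa5* followed these partners only loosely, with a Spearman's rho of 0.22 with *Hsp90b1* and of 0.40 with *Dnajc3*, the J-domain cochaperone of BiP.

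The HSP90 genes of the cytosol did not part the groups clearly. *Hsp90aa1*, the inducible form, ranged from 0 to 1962 RPM in stromal cells, with a median of 202, and from 0 to 1866 in other cells, with a median of 11.9. It reached 100 reads in 39 of 58 stromal and 13 of 27 other cells. The difference of the mean log2(value + 1) was 1.13, with SDs of 4.52 and 5.33, and leaving out any of the 10 other cells at 0 brought it to 0.91. By mean RPM the order turned, 314 in stromal and 485 in other cells. With cells of at least 1000 genes only, which left 57 stromal and 22 other cells, the difference was -0.058. Reads of this gene are shared with processed copies as well, and 53.1% of its windows were in *Gm12346*, *Gm5844* or *Gm5511*. With those 3 rows added, the difference on the log2(RPM + 1) scale was 0.73, compared with 1.0 without them.

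*Hsp90ab1*, the constitutive form, ranged from 0 to 3805 RPM in stromal cells, with a median of 116, and from 0 to 12599 in other cells, with a median of 9.70. The difference of the mean log2(value + 1) was 1.27, with SDs of 4.97 and 6.28, and it was -0.038 with cells of at least 1000 genes only. By mean RPM it was 946 in stromal and 1910 in other cells. The 3 highest of the other cells by RPM held 57.9% of its summed RPM in that group. The highest of these was cell 19, in which all members made up 4.03% of the reads.

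*Dnajb1*, the J-domain protein HSP40 that hands clients to HSP70, ranged from 0 to 5141 RPM in stromal cells, with a median of 203, and from 0 to 4100 in other cells, with a median of 0. The gene reached 100 reads in 35 of 58 stromal and 9 of 27 other cells. The difference of the mean log2(value + 1) was 2.53, with SDs of 5.28 and 5.51. The mean level was 679 RPM in stromal and 590 in other cells, closer than the shares of cells that held it, 67.2% and 48.1%. Few cells had a level in between, with 4 stromal cells at 1 to 99 reads beside 19 at 0.

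The small heat shock proteins went in opposite directions. *Hspb1*, which encodes HSP25, ranged from 0 to 2328 RPM in stromal cells, with a median of 62.3, and from 0 to 8988 in other cells, with a median of 1912. It reached 100 reads in 31 of 58 stromal cells (53.4%, 39.9 to 66.7%) and in 21 of 27 other cells (77.8%, 57.7 to 91.4%), and these intervals overlapped. The mean log2(value + 1) was 5.77 ± 4.89 in stromal and 9.99 ± 5.16 in other cells, a difference of -4.22. By mean RPM it was 8.53-fold higher in other cells. Its pseudogene *Hsp25-ps1* shared 47.3% of its windows but held 1 read in all cells, and *Gm9817*, with 41.6%, held 365.

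*Hspb8*, a small heat shock protein that works with the cochaperone BAG3, was found in stromal cells only. It ranged from 0 to 2570 RPM in stromal cells, with a median of 5.94. It was above 0 in 32 of 58 stromal cells (55.2%, 41.5 to 68.3%) and in 0 of 27 other cells, which allows a share of up to 11.1% by a floor of 3 cells and of up to 12.8% by the exact interval. There were 61822 reads over the stromal cells and 0 over the other cells. Pooled over cells, the stromal RPM was 8622-fold that of a floor of 3 reads over the other cells. This ratio is not a lower limit of the difference, since it takes reads as independent of the cell that holds them. The gene was either absent or high, with 26 stromal cells at 0, 5 at 1 to 99 reads and 27 at 100 or more. *Bag3* reached 100 reads in 27 stromal cells too, but in 11 cells together with *Hspb8*, and Spearman's rho between them over stromal cells was -0.04.

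*Cryab*, which encodes alpha B-crystallin, had a similar pattern. It ranged from 0 to 967 RPM in stromal cells, with a median of 0. The level of 100 reads was reached in 26 of 58 stromal cells (44.8%, 31.7 to 58.5%) and in 0 of 27 other cells, where a single cell had 4 reads. Over the group, stromal cells held 31687 reads. *Cryab* and *Hspb8* reached 100 reads together in 16 stromal cells, *Hspb8* alone in 11 and *Cryab* alone in 10, with a Spearman's rho of 0.29. *Hspb2*, a small heat shock gene that overlaps *Cryab* on the opposite strand, reached 100 reads in 3 stromal cells, and *Cryab* did so in all 3. The kit does not mark strand, so reads in the overlap, which held 17.1% of the windows of *Cryab*, cannot be told apart.

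Between the groups, 6 of the 10 members were higher in stromal cells by at least 1 in mean log2(value + 1) and 3 were lower by at least 1. Among all 11477 genes that 3 or more cells expressed, 35.6% were higher and 2.84% were lower by the same rule. Among the 1158 genes that at least 50% of cells expressed, which are more like the members in level, 77.6% were higher and 4.23% lower. Over all 16068 genes the shares were 25.4% and 2.03%. On recovered RPM, 5 members were higher and 3 lower, beside 29% and 2.51% of the genes expressed in 3 or more cells. The count of 6 higher members thus lay above the share among all genes and below that among well-detected genes, to which *Hspb8* and *Cryab* do not belong. Few genes lay where *Hspa1a*, *Hspa1b* and *Hspb1* did. The share of genes with a lower difference was 0.200% for *Hspa1a*, 0.322% for *Hspb1* and 0.706% for *Hspa1b*. Conversely, 2.04% of genes had a higher difference than *Hspa5* and 2.10% a higher one than *Hspb8*. The median over the genes expressed in 3 or more cells was 0.64 on the deposited scale and 0.50 on recovered RPM, and over the well-detected genes it was 2.50 on the deposited scale.

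**Figure D4:**
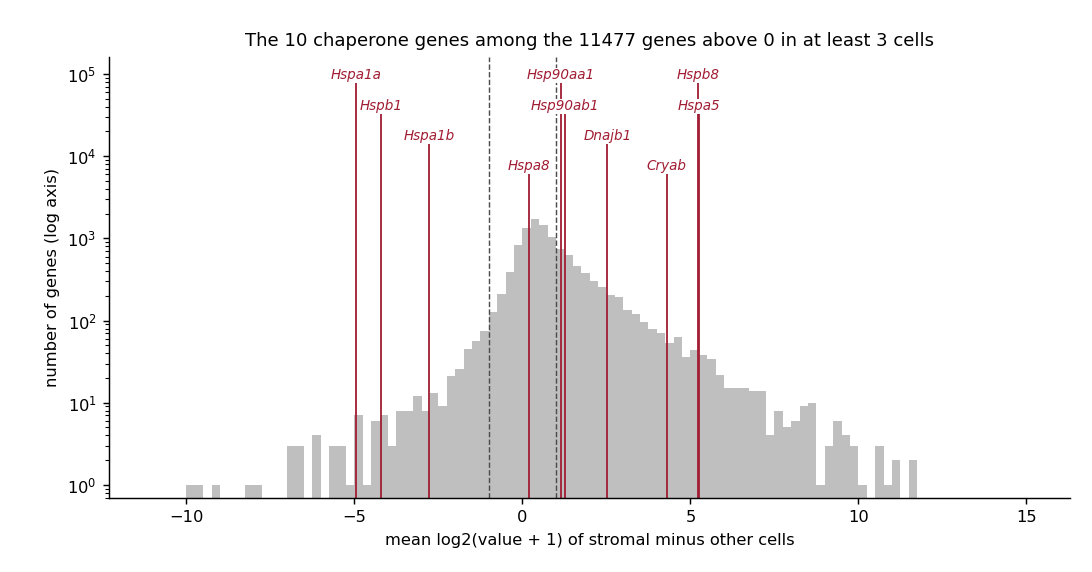
Mean log2(value + 1) of stromal minus other cells (horizontal axis) for 11477 genes as a histogram with a log count axis, with red lines at the 10 chaperone genes and dashed lines at -1 and 1. *Hspa1a* (-4.94), *Hspb1* (-4.22) and *Hspa1b* (-2.78) lie in the thin lower tail, and *Hspa8* (0.20) lies below the median of 0.64.

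The 4 other cells without 3 endothelial markers at 100 reads were cells 13, 67, 83 and 89. Of these, cell 83 had 1017 genes above 0. It held 8988 RPM of *Hspb1*, the highest of all 85 cells, with 10301 RPM of *Hspa8*, 1454 of *Hsp90aa1* and 1056 of *Hspa1a*. The remaining 3 cells had few genes above 0, namely 377, 285 and 405. In them the only member at 100 reads was *Hspa8*, in 1 cell. All 4 cells were kept in the group of 27. Among the 23 other cells with the endothelial markers, *Hspb1* reached 100 reads in 20, *Hspa1a* in 15 and *Hspa1b* in 14. Set against these 23 cells alone, 4 members were higher and 3 were lower in stromal cells. The share of all genes past the same cut was not computed for these 23 cells.

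Members varied between cells of 1 group largely on their own. Over stromal cells the 45 pairs of members had a median Spearman's rho of 0.106, from -0.12 to 0.49, and 2 pairs were at 0.4 or more. The median between members and 1655 other genes was 0.040. In other cells 36 pairs could be computed, with a median of 0.199 and 4 pairs at 0.4 or more, and the median between members and 399 other genes was 0.116. The second of the stromal pairs was *Hspa5* with *Hsp90aa1*, at 0.41, and this pair was at 0.60 in other cells. *Hspa8* and *Hspb1* had a rho of 0.53 in other cells. All such values rest on sparse counts of cells that share library size and scaling, and are a description only. *Hspa1a* and *Hspa1b* had the highest coefficients of variation of the members over stromal cells, 2.33 and 2.28, and 93.8% and 93% of genes had a lower one. By SD of log2(value + 1) the order was another, and 49.1% and 64.4% of genes had a lower SD than these 2. The members with the highest SD were *Dnajb1*, with 96.6% of genes lower, and *Hspb8*, with 95.3%.

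Apart from the copies, the genes nearest to a member over stromal cells were of mixed kinds. For *Hspa5* they were *Gadd45b*, a stress-response gene, at a rho of 0.50, *Selenof*, an ER selenoprotein, at 0.48 and *Tmem59* at 0.46. For *Hspa1b* the nearest was *Itgb1*, the CD29 integrin of the sort, at 0.55. For *Hsp90ab1* it was the splicing gene *Snrpd2* at 0.54, for *Dnajb1* the collagen-binding proteoglycan *Lum* at 0.44, and for *Hspb1* a pseudogene, *Gm15483*, at 0.44. *Gm15483* reached 100 reads in 0 stromal and 0 other cells. The HSP70 cochaperone *St13* was the third for *Hspb1*, at 0.39. For *Hsp90aa1* the first 2 were its copies *Gm5844* (0.77) and *Gm12346* (0.56).

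The partners of the members were described by list, beside the 35.6% of genes expressed in 3 or more cells that were higher by at least 1 and the 2.84% that were lower. Among 17 other J-domain proteins above 0 in at least 3 cells, 9 were higher by at least 1 and 0 lower, with a median difference of 1.80 and the largest values for *Dnajc3* (6.07), *Dnajc10* (4.25) and *Dnajb4* (3.80). Among 18 cochaperones of HSP70 and HSP90, 9 were higher and 0 lower, with a median of 1.21 and the largest values for the HSP90 activator *Ahsa1* (3.70), *Bag3* (3.63) and *Bag1* (3.45). Of 10 chaperonin genes, 8 were higher and 1 lower, with *Cct5* (3.25), *Cct8* (3.05) and *Cct6a* (2.52) at the upper end and the mitochondrial chaperonin *Hspd1* (-1.11) at the lower. Of 10 other HSP70 and HSP110 genes, 4 were higher and 0 lower, with a median of 0.82 and the largest values for the mitochondrial *Hspa9* (2.52), *Hspa13* (2.45) and *Hspa4* (1.87). The only other small heat shock protein with a row was *Hspb2* (0.53). As a reference, 7 of 10 housekeeping genes were higher and 0 lower, with a median of 3.02. None of the lists held genes as low as *Hspa1a*, *Hspb1* or *Hspa1b*.

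Heat shock factors themselves were sparse. *Hsf1* was above 0 in 3 stromal cells, with a difference of 0.38, and *Hsf2* in 8, with 0.69, while *Hsbp1*, which binds heat shock factor 1, was at 100 reads or more in 37 stromal and 7 other cells, with 3.82. Immediate early genes, which are also known to respond to digestion, were abundant in both groups. Their summed level had a median of 18441 RPM in stromal and 18410 in other cells, and 13 of 16 were higher in stromal cells by at least 1 with 0 lower, a share near the 77.6% of well-detected genes, led by *Fosb* (7.04), *Klf4* (5.14) and *Nr4a1* (4.55). The sum of the members had a Spearman's rho of 0.44 with the sum of the immediate early genes over stromal cells and of 0.46 over other cells. With the sum of the housekeeping genes it was 0.18 and 0.66, so in other cells the members ran closer to those. *Hspa8* alone had 0.40 with *Jun* and 0.38 with *Fos* over stromal cells. The part of digestion in the level of any member was not tested.

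**Figure D5:**
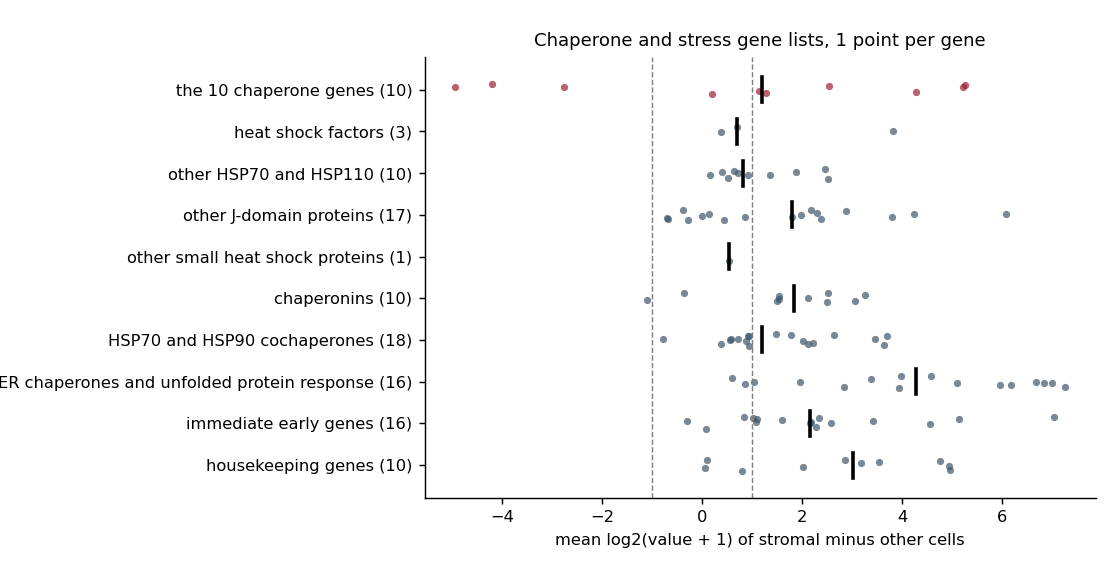
Mean log2(value + 1) of stromal minus other cells (horizontal axis) for each gene of the chaperone and stress lists, with 1 point per gene, a black bar at the median, dashed lines at -1 and 1 and the number of genes in brackets. *Hspa1a*, *Hspb1* and *Hspa1b* lie below every gene of the other lists, and the ER genes have the highest median, 4.27.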

How the data were processed

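Single sorted PV-ADSCs were sequenced as 1 library per cell. The authors aligned reads to mm9 with HISAT2 2.0.5, SAMtools 1.4 and StringTie 1.3.3, as the submitters' processing notes and the methods name them, and normalized with scater. The program that counted reads is not given in the sources used here. The deposited table, made by the authors, holds a signal per gene and cell (read counts after normalization), and 85.3% of its values were 0. Genes above 0 in at least 10 cells fell into 13 groups with a factor of their own in each cell, besides 723 genes with whole values, and dividing by the factors gave whole reads for 100% of 165973 values within a relative tolerance of 1e-08 or an absolute one of 1e-06. Levels were analysed as deposited log2(value + 1), and as recovered reads per 1000000 (RPM) where so stated. *Hspb1* and *Hspb8* were among the 723 genes with whole values. Factors reached 1.19 for *Dnajb1*, 4.17 for *Hspa1a*, *Hspa8*, *Hsp90aa1* and *Cryab*, and 32.3 for *Hspa1b*, *Hspa5* and *Hsp90ab1*. Deposited values of different members are therefore not on 1 scale.

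As each group was 1 sample, no test was made. Shares carry exact Clopper-Pearson intervals at 95%. The members and gene lists were chosen with earlier results of these data known. Genes named were all members, up to 3 genes of each list with the largest and 2 with the smallest differences past 1, and the 3 genes with the highest Spearman's rho to a member over stromal cells. *Jun*, *Fos*, *Hsf1*, *Hsf2*, *Hspb2* and copies sharing reads were named after their values had been seen. Lengths and 75-base windows, on either strand, came from the longest coding transcript in GENCODE M21 (GRCm38). Differences were recomputed with other pseudocounts, scales, *Dcn* limits, depths and cells. Scripts were tested on simulated data. There, 72% of genes raised 8-fold had a difference of 1 or more. Of those lowered 8-fold, 66% had a difference of -1 or less. Of those left unchanged, 26.7% were past 1 in either direction. These rates were taken on simulated reads without the factors, so they do not cover the scaling of the deposited values. Python 3.11.15, numpy 2.4.6, pandas 2.3.3 and scipy 1.17.1 were used.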

Additional observations from a re-analysis of the deposited data

How the results depend on the processing

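No paired analysis was possible because the series has 1 group of cells. The number of members higher in stromal cells was 6, between 4 and 6 with other pseudocounts, *Dcn* limits, scales, depths or sets of cells, between 5 and 6 when each cell was left out in turn, and 2 when mean RPM were compared. That comparison was chosen after seeing the data, as were the differences in thinned cells, the other cells with endothelial markers, the leaving out of cells and the adding of copies. The number lower was 3 to 4 under every alternative run. *Hsp90aa1* turned to -0.058 and *Hsp90ab1* to -0.038 with cells of at least 1000 genes, and to -0.63 and -1.01 by mean RPM, where a few high cells weigh more. The cause was not tested otherwise. Of 137 recomputed differences, 117 moved by less than 1 and 20 by more. The sign turned in 8, of which 4 were those of the HSP90 genes and 4 those of *Hspa8*. The number of members above 0 in at least 50% of cells was 8, and 6 at a limit of 10 or 100 reads. Apart from the main setting and recovered RPM, the matching shares of all genes were not computed for these counts. Depth differed less between groups than the number of genes per cell, and cells at 0 may hold transcripts that were missed.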
